A study of Homo sapiens with 12 samples.

Results

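The transcriptome of hTERT-RPE1 cells given siRNAs against CENPF and FOXM1 together was compared with that of cells given the CENPF siRNA alone. The difference reads what FOXM1 siRNA adds where all cells are given CENPF siRNA. The comparison used 6 of the 12 RNA-seq libraries of the series, 3 labelled siCENPF and 3 labelled siCENPF + siFOXM1, all from the parental hTERT-RPE1 line, an epithelial line of the retinal pigment epithelium immortalised with telomerase. Cells were collected 48 hours after treatment with 20 nM siRNA. Whether cells given both siRNAs received that dose of each or in total, and whether the single knockdown was topped up with another siRNA, the labels do not say. All 6 libraries carry the CENPF siRNA, and knockdown of either gene was partial, with CENPF lowered less where both siRNAs were given. Loss of FOXM1 and this weaker CENPF knockdown cannot be told apart in the comparison. The other 6 libraries, siNeg (a negative-control siRNA) and siFOXM1, entered no result on the first comparison and are used only where they are named.

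FOXM1 is a forkhead transcription factor that, with B-Myb and the MuvB complex, activates genes needed in G2 phase and mitosis, among them those for B-type cyclins and mitotic kinases. Many of these promoters lack a consensus forkhead site and carry CCAAT boxes, bound by NF-Y, and a CHR element, bound by MuvB. CENPF is a large protein of the outer kinetochore, the structure that links chromosomes to spindle microtubules, and is itself made in G2 and M phase.

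Depth ran from 13894831 to 31302177 reads in genes in the siCENPF libraries and from 15112858 to 17018969 with both siRNAs. The deepest of them was siCENPF replicate 3. Of 17 markers of retinal pigment epithelium, 9 passed the filter on low values, with summed levels of 45573 to 56602 normalized counts in siCENPF and 41748 to 47722 with both siRNAs. RPE65, RLBP1, TYR, TYRP1, DCT, TTR, LRAT and RGR, which define the differentiated tissue, did not pass it, while KRT8, KRT18 and BEST1 did. None of 11 blood and endothelial markers passed, nor did more than 3 of 10 keratinocyte or carcinoma markers (summed level 595 to 753 over the 6 libraries) and 4 of 9 neural markers (1859 to 2401), and none of these was called. Values below are normalized counts, which are not divided by gene length, so that levels are compared between libraries and not between genes. A log2 fold change is the fitted difference between both siRNAs and siCENPF on log2(normalized count + 1), given with its standard error (SE) from limma with the replicate number as a block.

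FOXM1 (ENSG00000111206, hg38 chr12:2857681-2877040, minus strand) stood at 3893, 3394 and 4258 normalized counts in siCENPF replicates 1 to 3 and at 729, 816 and 822 with both siRNAs. All 3 libraries with both siRNAs lay far below all 3 with siCENPF alone, at 20.5% of the siCENPF mean. Its log2 fold change was −2.28 ± 0.07 (SE), with an adjusted p of 8.04e-12 in limma. In these pooled cells, less RNA per cell and fewer cells carrying the RNA cannot be told apart, here and for every gene below.

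CENPF (ENSG00000117724, chr1:214603195-214664588, plus strand) was targeted in all 6 libraries and still differed between the groups. It stood at 893, 827 and 1017 normalized counts in siCENPF and at 1360, 1360 and 1284 with both siRNAs. The groups did not overlap, and the level with both siRNAs was 146% of that with siCENPF (log2 fold change 0.55 ± 0.07, limma adjusted p = 0.000749). For scale, the 3 siNeg libraries held 7797, 9537 and 7993, so that CENPF stayed far below its control level in both groups. FOXM1 siRNA without CENPF siRNA gave a log2 fold change of −0.15 for CENPF against siNeg (adjusted p = 0.074), and the difference of these effects, 0.70, passed the test (adjusted p = 0.00108). The plot of levels per library shows both targets with 6 further genes described below.

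**Figure D1:**
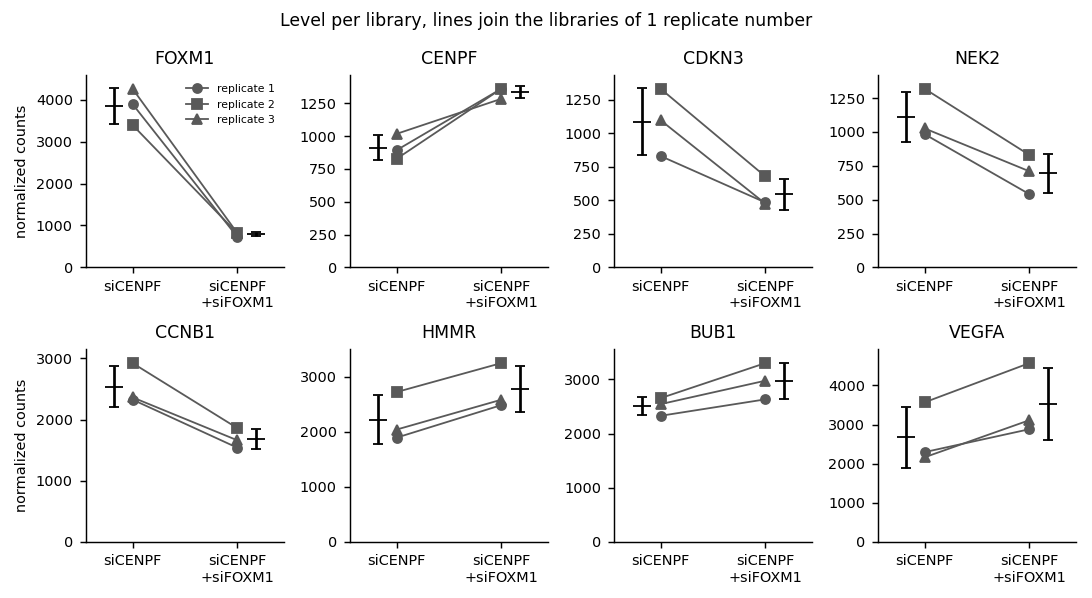
Normalized counts (y axes, from 0) of 8 genes in siCENPF libraries (left) and libraries with both siRNAs (right). Points are libraries, lines join those of 1 replicate number, and bars give the mean ± SD of 3 libraries. FOXM1 falls from 3848 to 789 on average and CENPF goes from 913 to 1335, while HMMR, BUB1 and VEGFA overlap between the groups although each line goes up.

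Of 14751 genes tested, 155 passed an adjusted p of 0.05 (1.05% of the genes), 44 of them higher (0.298%) and 111 lower (0.752%) with both siRNAs. All 155 moved the same way in all 3 replicate numbers, which a call from a fit paired by number favours. Changes were small: the median log2 fold change was 0.31 among the higher genes and −0.41 among the lower ones, and 7 genes changed over 2-fold. In 89 of the 155 the libraries of the groups did not overlap, 19 higher and 70 lower, where 7.37% of all genes tested were free of overlap. The plot of all genes shows that the called falls reach further from 0 than the called rises. The count rests on the pairing of the replicate numbers, with 3 genes (FOXM1, ITFG2 and THOC7, all lower) called when it is left out. It also rests on replicate 3: without it 45 genes were called, 3 of them higher. The labels do not say whether the replicates are separate cultures, so that p-values measure the spread between these libraries, which may be technical.

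**Figure D2:**
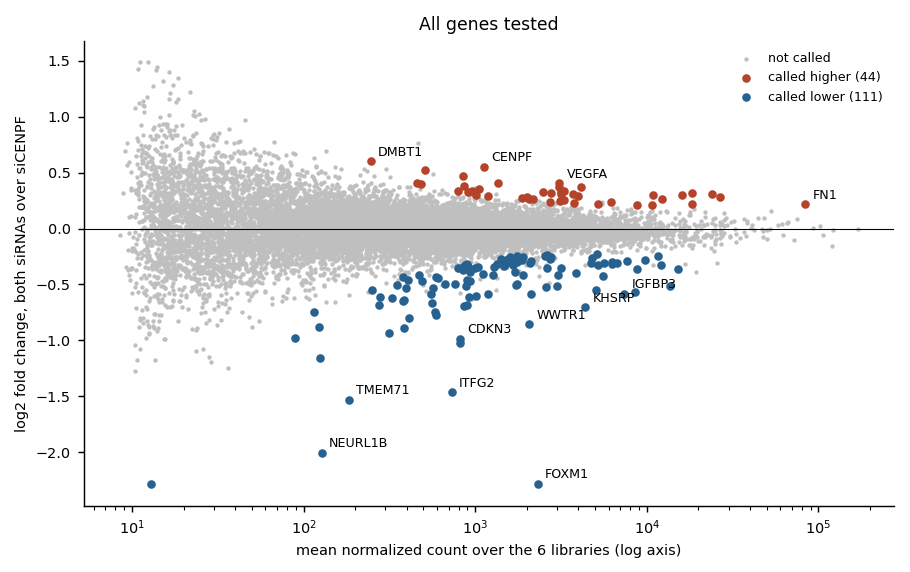
Log2 fold change of both siRNAs over siCENPF (y axis) against the mean normalized count over the 6 libraries (x axis, log scale), 1 point per gene tested. The 44 genes called higher stay within 0.60 log2 units of 0, while the 111 called lower reach past −2, with FOXM1 at −2.28 and NEURL1B at −2.005. The point at the lower left is CTB-79E8.2 (−2.29), at a mean of 12.9 normalized counts.

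Genes of G2 phase and mitosis split in both directions. Over 12 lists of mitotic genes, 167 genes were tested and 18 called (10.8%, beside 1.05% of all genes), 12 lower and 6 higher. The median log2 fold change of the 167 was 0.03, beside −0.0038 for all genes tested, with 102 above 0 and 65 below. The mitotic cyclins and CDK1 regulators held 4 of the falls among 17 tested, with none higher. A list of 24 textbook FOXM1 targets held 5 called lower (NEK2, CCNB1, KIF20A, CCNA2 and CEP55) and 1 higher (BUB1), while its median was 0.07, with 14 above 0.

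Promoters of genes picked from either side are shown because CCAAT boxes stood in both. Each line gives the 150 bases before the RefSeq transcription start on GRCh38.p14, written 5′ to 3′ on the gene's strand. Capitals mark CCAAT boxes, read as CCAAT or its reverse complement ATTGG, and the CHR, read as TTTGAA or TTCAAA. The first 3 genes fell and the last 3 rose.
CCNB1, chr5:69167000-69167149, plus strand: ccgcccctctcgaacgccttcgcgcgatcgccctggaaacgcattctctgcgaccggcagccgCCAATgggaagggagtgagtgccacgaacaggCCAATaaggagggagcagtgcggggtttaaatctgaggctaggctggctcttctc
NEK2, chr1:211675622-211675771, minus strand: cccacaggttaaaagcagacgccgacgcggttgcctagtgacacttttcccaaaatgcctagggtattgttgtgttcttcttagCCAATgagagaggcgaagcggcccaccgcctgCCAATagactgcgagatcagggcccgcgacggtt
KIF20A, chr5:138178962-138179111, plus strand: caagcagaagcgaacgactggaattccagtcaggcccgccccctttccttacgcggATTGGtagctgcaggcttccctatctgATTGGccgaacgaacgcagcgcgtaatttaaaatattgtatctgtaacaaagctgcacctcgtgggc
HMMR, chr5:163460482-163460631, plus strand: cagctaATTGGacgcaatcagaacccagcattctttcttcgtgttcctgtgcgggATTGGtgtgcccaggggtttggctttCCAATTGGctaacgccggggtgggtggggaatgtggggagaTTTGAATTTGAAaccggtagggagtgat
DEPDC1, chr1:68497083-68497232, minus strand: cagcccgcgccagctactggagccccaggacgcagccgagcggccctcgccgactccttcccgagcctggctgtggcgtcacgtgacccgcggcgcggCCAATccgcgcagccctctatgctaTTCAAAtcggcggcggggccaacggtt
BUB1, chr2:110678064-110678213, minus strand: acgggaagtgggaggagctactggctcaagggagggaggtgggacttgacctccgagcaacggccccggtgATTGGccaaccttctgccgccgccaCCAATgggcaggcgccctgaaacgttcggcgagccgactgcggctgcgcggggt

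CCNB1, NEK2, KIF20A and BUB1 each hold 2 CCAAT boxes in this window, DEPDC1 holds 1 and HMMR 4, of which 2 overlap. Of these 6 promoters, those of HMMR and DEPDC1 hold the CHR letters TTTGAA or TTCAAA, the only ones searched for. Promoters were matched by symbol for 9988 of the 14751 genes tested. Among those with a promoter, 8 of the 10 mitotic genes that fell and 4 of the 5 that rose hold a CCAAT box, beside 50% of all 142 mitotic genes with a promoter and 27.3% of all genes. These CHR letters stand in 3 of 10 and 2 of 5, beside 23.9% and 3.85%. Over all calls, the CHR letters stand in 12 of 85 promoters of falling genes (14.1%) and 2 of 32 of rising genes, and CCAAT in 32.9% and 34.4%. At least 2 CCAAT boxes stand in 4 of the 10 mitotic falls and 3 of the 5 rises. Over all calls they stand in 9.41% of falls and 21.9% of rises, beside 8.56% of all genes. The promoter of CENPE, which rose and is not shown, holds no CCAAT box. The forkhead word TAAACA stands in 5 of 85 promoters of falling genes (5.88%), 1 of 32 of rising genes and 2.94% of all, and in none of these 15 mitotic promoters. A match of letters is no measured site, and a promoter without these letters may hold a CHR or forkhead site of other letters.

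The falls among mitotic cyclins and CDK1 regulators were CDKN3, CCNB1, CCNA2 and CCNF. CDKN3, the largest fall of the mitotic lists, which encodes a phosphatase that acts on cyclin-dependent kinases, stood at 831, 1333 and 1098 normalized counts in siCENPF and at 485, 679 and 476 with both siRNAs. Every library with both siRNAs was below every siCENPF library, and the log2 fold change was −0.98 ± 0.08 (limma adjusted p = 8.2e-06). CCNB1, the cyclin that activates CDK1 for entry into mitosis, stood at 2326, 2924 and 2363 and at 1539, 1861 and 1661. Its groups were also apart, with a log2 fold change of −0.58 ± 0.06 (adjusted p = 2.78e-05). CCNA2, the cyclin of S and G2 phase, stood at 3179, 3735 and 3653 and at 2251, 2617 and 2541, again without overlap (log2 fold change −0.51 ± 0.05). CCNF, a substrate receptor of a ubiquitin ligase, stood at 72.1% of its siCENPF mean. CDK1 itself stood at 2429, 2988 and 2326 and at 2236, 2795 and 2155, which overlap (log2 fold change −0.11, adjusted p = 0.458). CCNB2, the other B-type cyclin, gave −0.17 (adjusted p = 0.249), and CDC25B, the phosphatase that removes the inhibitory phosphates of CDK1, gave −0.26 (adjusted p = 0.051) with no overlap of the groups.

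Among the kinases, kinesins and spindle genes, NEK2, a kinase of centrosome separation, fell most. It stood at 983, 1318 and 1026 normalized counts in siCENPF and at 541, 830 and 710 with both siRNAs, so that the groups were apart (log2 fold change −0.69 ± 0.08, limma adjusted p = 9.95e-05). NDE1, a dynein regulator at kinetochores and centrosomes, stood at 664, 684 and 717 and at 423, 437 and 443, a tight pair of groups (log2 fold change −0.66). FAM83D, which brings casein kinase 1 to the spindle, gave −0.59, and KIF20A, a kinesin of cytokinesis, gave −0.52 (adjusted p = 0.000101). CKAP2, a microtubule-binding protein of the spindle, gave −0.40. RAD21, the cohesin subunit cut at anaphase, gave −0.31, CEP55, a midbody protein of abscission, gave −0.31, and ASPM, a spindle pole protein, gave −0.32. All 12 mitotic genes that fell did so without overlap of the groups. So did 70 of all 111 called falls, and 7.37% of all genes tested were free of overlap. Without replicate 3, 8 of the 12 kept their call. CCNF (adjusted p = 0.178), RAD21 (0.213), CEP55 (0.23) and ASPM (0.278) did not, and ASPM missed it without replicate 1 too (0.0673).

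The 6 mitotic genes that rose did so by less, with log2 fold changes of 0.23 to 0.33. HMMR, a spindle assembly and hyaluronan-binding protein, stood at 1892, 2722 and 2039 normalized counts in siCENPF and at 2483, 3248 and 2582 with both siRNAs. The groups overlap because replicate 2 was high in both, and within each replicate number the library with both siRNAs was higher (log2 fold change 0.33 ± 0.05, limma adjusted p = 0.00466). BUB1, a kinase of the spindle checkpoint, stood at 2329, 2655 and 2544 and at 2632, 3303 and 2977 (0.24, adjusted p = 0.0427). CASC5 (also KNL1), the outer kinetochore scaffold that binds BUB1, gave 0.28 (adjusted p = 0.0267). CENPE, the kinesin that moves chromosomes to the spindle equator, gave 0.23 (0.0377), CIT, a kinase of the midbody, gave 0.26 (0.037) and DEPDC1 gave 0.25 (0.0347). The groups were free of overlap for CASC5 and DEPDC1 only among these 6, beside 19 of all 44 called rises. None of the 6 kept its call without replicate 3, with adjusted p from 0.163 to 0.576 and log2 fold changes still from 0.21 to 0.32. Without replicate 2, HMMR alone among them kept its call, and CIT missed it without replicate 1 (0.0713).

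**Figure D3:**
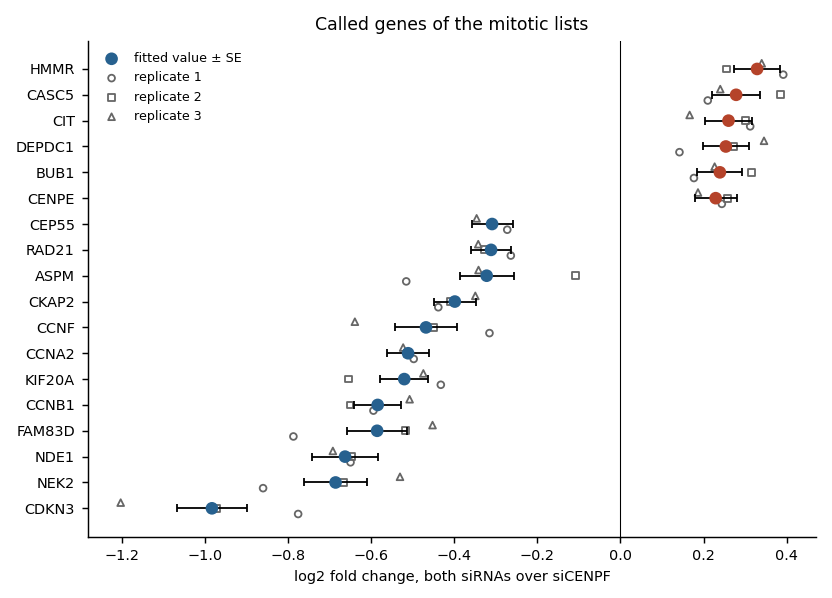
Log2 fold change of both siRNAs over siCENPF for the 18 called genes of the mitotic lists. Filled points are fitted values with their SE, open marks the 3 replicate numbers. CDKN3 (−0.98) is lowest and HMMR (0.33) highest, and every open mark lies on its gene's side of 0, as in all 155 called genes.

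Cell-cycle genes outside these lists also went both ways. GPSM2, which orients the spindle, fell from 1096, 1398 and 1158 to 691, 867 and 847 normalized counts (log2 fold change −0.60 ± 0.07, limma adjusted p = 0.000157). TROAP, a spindle protein, gave −0.58, and ARL6IP1, an endoplasmic reticulum shaping protein, gave −0.57. GAS2L3 gave −0.46 and KPNA2, an importin, gave −0.29. These 5 were picked after their values were seen, and all were free of overlap, as were 70 of all 111 called falls. G2E3, a ubiquitin ligase named for its G2-phase expression, rose from 1133, 1215 and 1173 to 1472, 1686 and 1516 (0.41 ± 0.06, adjusted p = 0.0021). TOP2A, the topoisomerase that untangles sister chromatids, gave 0.27 (adjusted p = 0.00625) with overlap between groups. Without replicate 3 the calls of KPNA2 (adjusted p = 0.15), GAS2L3 (0.0807), G2E3 (0.0545) and TOP2A (0.331) were lost.

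Other well-known G2 and M genes did not pass. PLK1, the kinase of mitotic entry, stood at 3104, 2921 and 3415 normalized counts in siCENPF and at 3177, 3160 and 3554 with both siRNAs (log2 fold change 0.07 ± 0.05, limma adjusted p = 0.659). AURKA, the spindle pole kinase, gave 0.22 (adjusted p = 0.0686), AURKB 0.12 (0.529) and BIRC5, its partner in the chromosomal passenger complex, 0.17 (0.175). CDC20, the activator of the anaphase-promoting complex, gave 0.11 (0.42). CENPA, the histone variant of the centromere, stood at 318, 534 and 408 and at 266, 406 and 295, lower in each replicate number with overlapping groups (−0.37 ± 0.09, adjusted p = 0.0832). CENPB, which binds alphoid repeats, gave −0.12 (0.414). MYBL2, which encodes B-Myb, gave −0.25 (0.0551). None of the 9 genes of centromere chromatin, the 15 of the inner kinetochore, the 14 of the MuvB, B-Myb and DREAM complexes or the 20 of the anaphase-promoting complex was called.

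Genes of G1 and S phase moved little. Of 43 S phase genes none was called, with a median of −0.05 and 32 below 0. MCM6, a subunit of the replicative helicase, gave −0.25 (limma adjusted p = 0.0511) and RRM2, a ribonucleotide reductase subunit, gave −0.21 (0.0629). Of 18 G1/S cyclins, kinases, inhibitors and E2F factors, CDKN2D, an inhibitor of CDK4 and CDK6, was called. It stood at 327, 354 and 332 normalized counts in siCENPF and at 207, 219 and 205 with both siRNAs, well apart (−0.68 ± 0.10, adjusted p = 0.00225, and 0.0545 without replicate 3). Of 23 p53 targets none was called, and CDKN1A gave 0.11 (0.455). No gene was called among 17 of DNA repair, 9 histone genes or 24 of the primary cilium and Hedgehog pathway.

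Among called genes with a mean of at least 100 normalized counts and an official-style symbol, the largest falls beside FOXM1 were in genes of varied function. NEURL1B, a ubiquitin ligase of Notch ligands, stood at 173, 249 and 186 normalized counts in siCENPF and at 37.1, 78.9 and 40.3 with both siRNAs, 25.7% of its siCENPF mean (log2 fold change −2.005 ± 0.17, limma adjusted p = 8.2e-06). It was the single call among 14 Notch pathway genes. TMEM71, a transmembrane protein, stood at 249, 288 and 277 and at 66.6, 134 and 90.6 (−1.53 ± 0.15). THOC7, a subunit of the THO complex of mRNA export, stood at 997, 1126 and 1140 and at 563, 509 and 533 (−1.02 ± 0.08, adjusted p = 4.1e-06), and was the single call among 15 genes of THO and mRNA export. In each of these genes the groups were clearly apart.

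Further large falls included regulators of signalling and cell death. WWTR1, which encodes the YAP partner TAZ, stood at 2932, 2695 and 2384 normalized counts in siCENPF and at 1531, 1520 and 1361 with both siRNAs (−0.86 ± 0.06, limma adjusted p = 5.96e-07). BAK1, a pore-forming effector of apoptosis, stood at 641, 458 and 468 and at 344, 261 and 288 (−0.80), the single call among 13 genes of the BCL2 family. CNTRL, a centriolar protein, gave −0.88. KHSRP, an RNA-binding protein of mRNA decay, gave −0.70 ± 0.06 (adjusted p = 6.68e-06). KRTAP2-3, a hair keratin-associated protein, gave −1.15 and IL7R, the receptor for interleukin 7, gave −0.88. These last differ more between replicate numbers than between groups: KRTAP2-3 stood at 262, 54.8 and 198 in siCENPF and at 114, 23.2 and 94.1 with both siRNAs. IL7R lost its call without replicate 3 (adjusted p = 0.245) and without replicate 1 (0.0551).

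Several called genes share exon bases with a gene on the other strand, and no source used here gives the strand setting of the authors' counting. ITFG2, which stood at 1089, 945 and 1185 normalized counts in siCENPF and at 396, 437 and 335 with both siRNAs (log2 fold change −1.46), shares 781 exon bases with FOXM1 on the opposite strand. If the counting ignored strand, reads from shared bases, here 12.5% of the exon bases of ITFG2, cannot be told apart between partners. The fall of ITFG2 is uncertain for that reason. Of the 155 called genes, 68 share exon bases with another gene, 62 of them with 1 on the opposite strand. Overlaps down to 1 base are counted. The share among all genes tested was not counted, so these numbers do not set the called genes apart. In 8 pairs both partners were called, all 8 in the same direction. They are FOXM1 and ITFG2, NEURL1B and CTB-79E8.2, WWTR1 and WWTR1-AS1, NDE1 and MYH11, CTGF and RP11-69I8.3, PLAU and C10orf55, HMGCS1 and CTD-2636A23.2, and ALDH1A3 and RP11-66B24.4.

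Of 15 secreted cytokines and related factors on the list, IGFBP3 was called (lower) and 14 were not, with a median of −0.08 and 5 above 0. IGFBP3, which binds insulin-like growth factors, stood at 9322, 8252 and 9038 normalized counts in siCENPF and at 6677, 5286 and 5877 with both siRNAs, without overlap (log2 fold change −0.58 ± 0.05, limma adjusted p = 8.2e-06). Further genes for secreted proteins that fell were picked after their values were seen. FST, which encodes the activin antagonist follistatin, stood at 1441, 736 and 1178 and at 846, 506 and 811 (−0.62). INHBA, the activin A subunit, gave −0.30 (adjusted p = 0.00557, and 0.139 without replicate 3). DKK1, a Wnt antagonist, gave −0.41 and PTX3, a pentraxin, gave −0.50. Of 18 YAP/TAZ targets, ANKRD1 (−0.51) and CTGF (−0.37) were called (11.1%, beside 1.05% of all genes) and the median was −0.10. ANKRD1 stood at 22965, 11012 and 14861 and at 14425, 8290 and 10833, so that its groups overlap although each replicate number fell. CTGF missed its call without replicate 3 (adjusted p = 0.073), as did DKK1 (0.0859).

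Of the 14 matrix genes on the list, 2 were called higher (COL6A3 and FN1) and 1 lower (LOX), and the median was 0.09. The share called was 21.4%, beside 1.05% of all genes. VCAN, HSPG2, PLAU, PLAT and TGM2, which also rose, were picked after their values were seen. VCAN, a large matrix proteoglycan, stood at 17250, 26676 and 20346 normalized counts in siCENPF and at 21991, 34596 and 23527 with both siRNAs (log2 fold change 0.31 ± 0.05, limma adjusted p = 0.00248). COL6A3, a collagen VI chain, gave 0.35, FN1, fibronectin, 0.22, and HSPG2, perlecan, 0.22. The plasminogen activators PLAU (0.30) and PLAT (0.32) and TGM2, a transglutaminase that crosslinks matrix proteins (0.29), rose as well. LOX, the lysyl oxidase of collagen, went the other way (−0.24, adjusted p = 0.0186, and 0.378 without replicate 3). Apart from COL6A3, the groups of these 7 rising genes overlapped, and replicate 2 was the highest in both groups for VCAN, PLAU, PLAT, TGM2 and FN1. None of the 7 was called without replicate 3 (adjusted p from 0.0867 to 0.606).

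Other rises were scattered over functions. DMBT1, a scavenger receptor protein, stood at 168, 220 and 201 normalized counts in siCENPF and at 303, 305 and 285 with both siRNAs, which was the largest called rise (log2 fold change 0.60 ± 0.12, limma adjusted p = 0.0141). VEGFA, the vascular endothelial growth factor, stood at 2294, 3568 and 2161 and at 2879, 4572 and 3110 (0.40 ± 0.06, adjusted p = 0.000905). FUBP1, which binds an element upstream of MYC, stood at 2873, 2329 and 2841 and at 3608, 3195 and 3605, with no overlap (0.38). CD82, a tetraspanin, gave 0.47, UACA 0.37, FGD6 0.40, PRDM8 0.38 and SH3TC2 0.34. Of 22 genes of cholesterol synthesis, HMGCS1 (0.31) and DHCR7 (0.27) were called (9.09%, beside 1.05% of all genes). Of the 22, 21 lay above 0, beside 7206 of all 14751 genes tested, and the median was 0.14. With replicate 3 left out, the 3 rises still called among all genes were CENPF, FUBP1 and UACA. There DMBT1 stood at an adjusted p of 0.116, VEGFA at 0.113, and HMGCS1 and DHCR7 at 0.448 and 0.452.

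Interferon-stimulated genes and stress genes are given for the replicate they follow. All 18 interferon-stimulated genes tested lay below 0 (median −0.40) and none was called. The median difference was −1.31 in replicate 1, −0.02 in replicate 2 and −0.03 in replicate 3. ISG15 stood at 3885, 142 and 121 normalized counts in siCENPF and at 1368, 113 and 116 with both siRNAs, so that replicate 1 was high in both groups. Without replicate 1, 185 genes were called over all. Of 20 genes of the integrated stress and unfolded protein response none was called, with 17 below 0 and a median of −0.16, and in replicate 1 of −0.31. The 13 mitochondrially encoded mRNAs had a median of −0.07. The part of any of these in the other results was not tested.

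**Figure D4:**
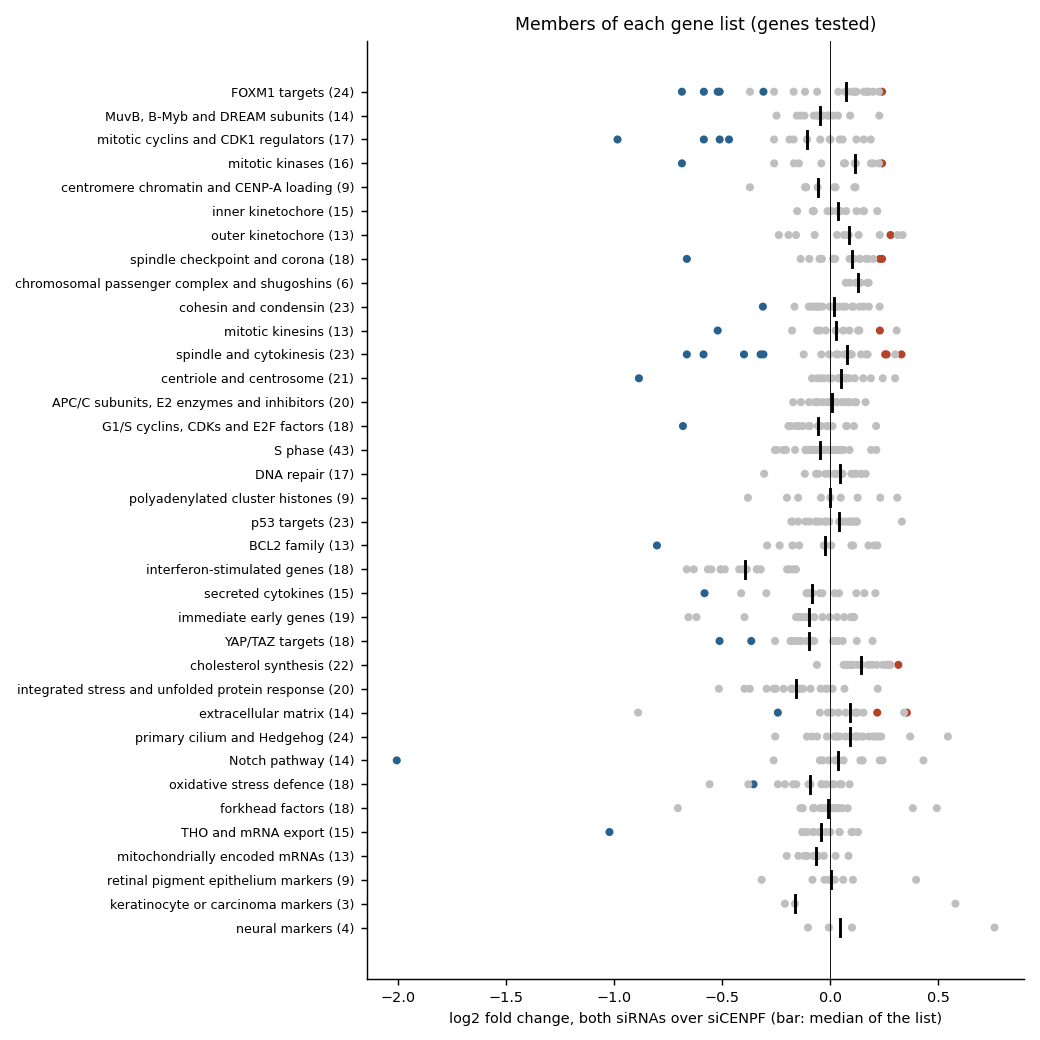
Log2 fold change of both siRNAs over siCENPF for the tested members of each list with 3 or more of them, 1 point per gene, with their number in brackets. Grey points were not called, blue ones were called lower and red ones higher, and black bars are medians. List medians lie between −0.16 and 0.14 apart from that of the interferon-stimulated genes (−0.40), and the mitotic lists hold called genes on both sides.

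The FOXM1 siRNA was also compared in cells without CENPF siRNA, siFOXM1 against siNeg, in libraries that share none with the 6 above. There 1573 of 14759 genes were called (10.7%), 803 higher and 770 lower. Of the 111 genes that fell with both siRNAs, 107 had the same sign there and 96 (86.5%) were called the same way. Of the 44 that rose, 41 had the same sign and 32 (72.7%) were called the same way. Over all genes tested in both settings, 50.2% lay below 0 there and 49.8% above 0. Of the lower and higher calls in cells without CENPF siRNA, 12.5% and 3.99% were calls of the same direction here. Median log2 fold changes of the 111 and 44 genes there were −0.57 and 0.28. In size, 78 of the 111 falls and 23 of the 44 rises were larger there. FOXM1 itself gave −2.74 there, from 4186, 4438 and 4763 normalized counts in siNeg to 732, 491 and 816 in siFOXM1. It gave −2.28 here (difference 0.46, limma adjusted p = 0.514). Whether the depth of the FOXM1 knockdown or the siRNA dose plays a part in these sizes was not tested.

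Genes called in both settings included those of mitosis. CDKN3 gave −1.33 there beside −0.98 here, NEK2 −0.84 beside −0.69, CCNB1 −0.67 beside −0.58 and CCNA2 −0.63 beside −0.51. All 12 mitotic genes that fell here were called lower there, and for none of the 12 did the difference of the effects pass (adjusted p from 0.353 to 0.874). All 6 that rose had the same sign there and 5 were called, HMMR being the exception at 0.06 (adjusted p = 0.537). The difference for HMMR, 0.27, did not pass either (0.162).

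The difference of the 2 effects was tested over all 12 libraries, and 126 genes passed it (0.854%), 16 above 0 and 110 below. Among the 155 called genes, 12 passed it. Of these 12, 9 were called lower and 3 higher with both siRNAs. TMEM71 gave −1.53 here and −2.53 there. INHBA was called in opposite directions: it stood at 8873, 5150 and 6772 normalized counts in siCENPF and at 6718, 4295 and 5746 with both siRNAs, and at 4546, 3209 and 3949 in siNeg and 5945, 3644 and 5056 in siFOXM1. Its log2 fold change was −0.30 here and 0.31 there, a difference of −0.61 (adjusted p = 2.63e-05). RAB7A, a GTPase of late endosomes, fell to 67.9% of its siCENPF mean here (−0.55) and gave −0.15 there (difference −0.40, adjusted p = 0.00518). Its levels were 7161, 5119 and 5800 normalized counts in siCENPF, 4411, 3608 and 4250 with both siRNAs and 4293, 3403 and 4065 in siNeg. RAB7A was thus above siNeg with CENPF siRNA alone, and its fall here ended near the siNeg level. Whether the weaker CENPF knockdown with both siRNAs plays a part in this was not tested. NECAP1, an endocytic adaptor, gave −0.53 here and −1.25 there.

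**Figure D5:**
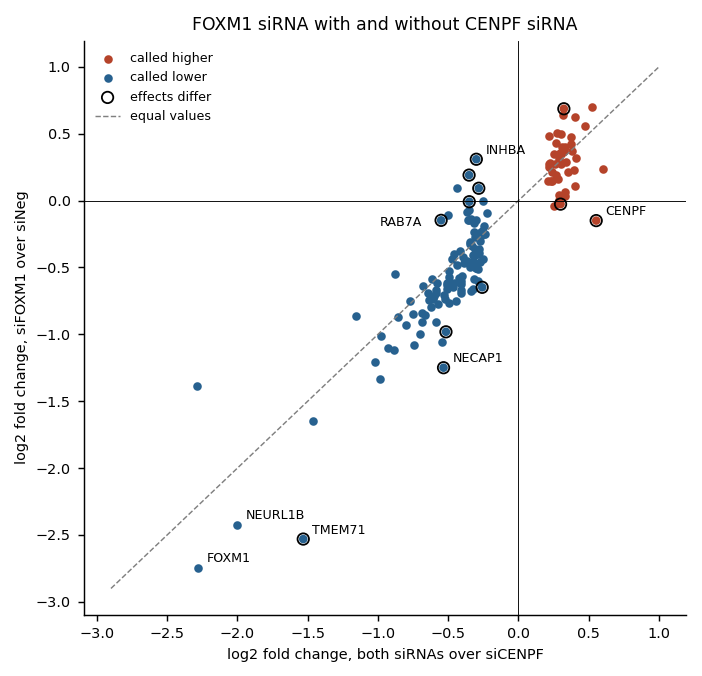
Log2 fold change of siFOXM1 over siNeg (y axis) against that of both siRNAs over siCENPF (x axis) for the 155 genes called in the latter. Black rings mark the 12 genes whose effects differed and the dashed line marks equal values. Most points lie on the same side of 0 on both axes, with INHBA above 0 on the y axis and below 0 on the x axis.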

How the data were processed

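The authors deposited normalized counts for 14862 genes (a signal scaled between libraries); how they were scaled is not stated in any source used here. FPKM for 60279 genes and edgeR tables with CPM per library were also deposited by the authors. Per the submitters' processing notes, bcl2fastq, Trimmomatic, TopHat and edgeR were used with hg38, without versions. Whole reads were recovered from the deposited CPM and FPKM for 14556 genes (100% of values within 0.01 reads).

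Genes reaching 10 normalized counts in 3 or more of the 6 libraries were tested with limma 3.58.1 (R 4.3.3, trend and robust moderation) on log2(normalized count + 1), two-sided, with Benjamini-Hochberg adjustment and a threshold of 0.05. The replicate number was a block, since deviations from the group means correlated at 0.52, 0.581 and 0.37 between libraries of 1 number and at −0.0427 to −0.443 between numbers. Deviations cancel out within a group, so that the negative values follow from the positive ones and are no separate evidence. Scripts were tested on simulated data. Gene lists and comparisons were chosen with earlier results of these data known. Named genes were both targets, the 12 largest rises and falls among called genes with a mean of at least 100 normalized counts and an official-style symbol, up to 4 members per list and the 6 smallest adjusted p; others are described for their function or position, and some that the rule names are not reported here. Symbols came from the authors' tables (14202 genes) or GENCODE (618), positions on hg38 from the authors' tables, shared exons from GENCODE and promoters from RefSeq. Alternatives were other pseudocounts, filters, scalings, tables and count tests (edgeR 4.0.16, DESeq2 1.42.0), fits without the block and leaving out each replicate number. The siRNA sequences are not used here.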

Additional observations from a re-analysis of the deposited data

Results flagged for a closer look

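Among the 155 called genes and 24 uncalled ones followed in the text, the effect of the FOXM1 siRNA differed for 13 between cells with and without CENPF siRNA, by the difference of the effects in limma over the 12 libraries (with CENPF siRNA minus without, log2), which called 126 genes over all. Of those 126 differences, 16 were above 0 and 110 below. Among the 13, the difference was above 0 for CENPF (0.70), NECAP1 (0.72), TMEM71 (1.00), GPR180 (0.47), ZDHHC20 (0.39) and RGS4 (0.33). It was below 0 for INHBA (−0.61), SLC17A5 (−0.54), MSMO1 (−0.50), RAB7A (−0.40), VKORC1L1 (−0.37), KRT80 (−0.36) and RP11-69I8.3 (−0.34). NECAP1, TMEM71, GPR180 and ZDHHC20 fell in both settings and by less with CENPF siRNA, and KRT80 rose in both and by less with it (0.32 beside 0.69). MSMO1, an enzyme of cholesterol synthesis, was called higher without CENPF siRNA (0.75) and not with it (0.24, adjusted p = 0.0629). RGS4, a regulator of G protein signalling, gave 0.30 with CENPF siRNA and −0.03 without. It stood at 19317, 17912 and 18312 normalized counts in siNeg, 14761, 14565 and 13653 in siCENPF and 17744, 18364 and 16792 with both siRNAs. SLC17A5 and VKORC1L1 fell with CENPF siRNA (−0.35 and −0.28) and gave 0.19 and 0.09 without it, neither of which passed. SLC17A5 stood at 583, 547 and 486 normalized counts in siNeg, 1002, 921 and 748 in siCENPF and 707, 807 and 582 with both siRNAs. VKORC1L1 stood at 1357, 1135 and 1403, at 1775, 1598 and 1804 and at 1489, 1298 and 1471 in that order. Like RAB7A and RGS4, they lay nearer to siNeg with both siRNAs than in siCENPF. NECAP1 and TMEM71 were below siNeg in siCENPF and fell further. RP11-69I8.3 shares 195 exon bases with CTGF on the opposite strand.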

How the results depend on the processing

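Beside the 155 genes called, another pseudocount, filter, scaling or moderation, all 12 libraries with the block, and edgeR with either normalization gave 112 to 217. Without the replicate block 3 genes were called (323 at an unadjusted p under 0.05, beside 1701 with it), 12 over all 12 libraries, and 3 with edgeR, an alternative chosen after seeing the data. DESeq2 called 100 (26 higher, 74 lower), and a fit to FPKM called 1 gene, where limma's median degrees of freedom were 4.74 instead of 15.8. Leaving out 1 replicate number gave 45 to 185. Of the 155, 39 were called whichever number was left out, 36 of them lower.

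For the difference of effects, 126 genes became 0 without the replicate block (limma) and 30 to 109 without 1 number, the lowest being without replicate 1 and 44 without replicate 3. For siFOXM1 against siNeg, 1573 became 40 without the block and 781 to 1318 without 1 number. None of 179 genes followed over 17 settings changed sign where called. Depth limits lowly expressed genes most, whose fold changes the pseudocount also shrinks.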
